A study of Homo sapiens with 6 samples.

Results

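The genes described here encode the heterogeneous nuclear ribonucleoproteins (HNRNP genes), the SR proteins (SRSF genes), the U2 factors that recognise the branch site and the end of the intron, and a set of other splicing regulators. They were chosen by name: symbols beginning with HNRNP, the numbered SRSF, SF3A and SF3B genes, symbols beginning with U2AF1 or U2AF2, and SF1, DHX9, PTBP1, PTBP2, TRA2A, TRA2B, SRRM1, SRRM2, RBFOX2, ESRP1, ESRP2, MBNL1, MBNL2, QKI and CELF1. This gave 70 of the 26931 gene symbols in the tables: 30 HNRNP genes, 12 SRSF genes, 14 SF3A, SF3B, U2AF and SF1 genes, 4 TRA2 and SRRM genes, 2 PTBP genes and 8 others. Of the 70, 63 reached 1 FPKM (mapped fragments scaled to transcript length and library size) in at least 2 of the 6 libraries and were tested, as were 13043 of all symbols. The 7 below that filter were HNRNPCL1, HNRNPCL2, HNRNPCL3, HNRNPA1P10, HNRNPA3P1, HNRNPKP3 and ESRP2.

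The libraries came from TC32 cells, a line derived from Ewing sarcoma, 48 h after they received an siRNA against EWSR1 (siEWSR1, 2 libraries), an siRNA against FLI1 (siFLI1, 2 libraries) or a negative control siRNA (siNeg, 2 libraries). Ewing sarcoma cells carry a fusion of EWSR1 to FLI1 that encodes the transcription factor EWS-FLI1, so the fusion transcript holds sequence of both targeted genes. The deposited gene tables list EWSR1 and FLI1 but not the fusion. All groups share the cell line, and each received an siRNA. Whether the libraries of a group stem from separate cultures is not in the labels, and each p-value speaks of the spread among the 6 libraries, which may be technical.

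Splicing factors decide which exons are kept when introns are removed. SR proteins bind exons and mostly favour their inclusion, HNRNP proteins bind exons and introns and often oppose it, and the U2 factors mark the end of the intron for the spliceosome. Many of these genes regulate their own level by including an exon that sends the transcript to nonsense-mediated decay. In Ewing sarcoma, HNRNPH1 is known to act on the fusion transcript in lines whose breakpoint keeps an extra EWSR1 exon, and DHX9 (RNA helicase A) is known to bind the EWS-FLI1 protein.

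Between 12079 and 12741 genes reached 1 FPKM in a library. EWSR1 had 34.6 and 32.3 FPKM in siEWSR1 libraries, 51.2 and 50.2 FPKM in siFLI1 libraries, and 46.5 and 47.2 FPKM in siNeg libraries, and was lower in siEWSR1 than in siNeg (log2 change -0.48 ± 0.06 SE, adjusted p = 0.000444, limma). FLI1 had 10.4 and 10.6 FPKM in siEWSR1 libraries, 8.98 and 8.56 FPKM in siFLI1 libraries, and 10.9 and 10.9 FPKM in siNeg libraries, and was lower in siFLI1 than in siNeg (log2 change -0.29 ± 0.06 SE, adjusted p = 0.00423). Each targeted gene thus fell under its own siRNA, 1.39-fold for EWSR1 and 1.23-fold for FLI1. Neither was called lower under the other siRNA: FLI1 changed by -0.04 after siEWSR1 (adjusted p = 0.534, limma) and EWSR1 by 0.11 after siFLI1 (adjusted p = 0.110). These reads do not separate the normal from the fusion transcript. Of 10 Ewing sarcoma markers, 8 reached 1 FPKM, among them CD99, and PAX7 and GLI1 did not. Their summed level averaged 508 FPKM in siEWSR1, 519 FPKM in siFLI1 and 938 FPKM in siNeg libraries. The markers did not differ in proportion. In the same order of groups, NR0B1 averaged 62.5, 62.7 and 219 FPKM and CCND1 124, 118 and 307 FPKM. CD99 averaged 262, 281 and 306 FPKM, and GLI1, under 1 FPKM throughout, was lowest in siNeg. Of the blood cell markers, 5 of 6 stayed under 1 FPKM in all libraries, and all 4 endothelial markers did. In bulk libraries, fewer cells of a type and less RNA per cell cannot be told apart.

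Promoter windows are shown for 5 members with opposite changes within a family or complex: SRSF6 and SRSF7, SF3B4 and SF3B6, and HNRNPA2B1, the most abundant member. Each is the RefSeq window of 250 bases before to 50 after the annotated start (GRCh38.p14). Capitals mark GGAA or its complement TTCC, the core letters bound by ETS factors such as FLI1. The windows are SRSF6 at chr20:43457646-43457945 (plus strand), SRSF7 at chr2:38751445-38751744 (minus strand, the first of its 2 windows), HNRNPA2B1 at chr7:26200697-26200996 (minus), SF3B4 at chr1:149927754-149928053 (minus) and SF3B6 at chr2:24076277-24076576 (minus).
SRSF6: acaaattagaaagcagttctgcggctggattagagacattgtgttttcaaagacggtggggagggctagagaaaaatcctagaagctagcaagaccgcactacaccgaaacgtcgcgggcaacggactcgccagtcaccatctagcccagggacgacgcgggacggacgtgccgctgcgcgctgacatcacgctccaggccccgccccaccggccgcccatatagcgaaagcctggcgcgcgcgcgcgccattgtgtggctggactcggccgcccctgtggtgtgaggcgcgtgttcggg
SRSF7: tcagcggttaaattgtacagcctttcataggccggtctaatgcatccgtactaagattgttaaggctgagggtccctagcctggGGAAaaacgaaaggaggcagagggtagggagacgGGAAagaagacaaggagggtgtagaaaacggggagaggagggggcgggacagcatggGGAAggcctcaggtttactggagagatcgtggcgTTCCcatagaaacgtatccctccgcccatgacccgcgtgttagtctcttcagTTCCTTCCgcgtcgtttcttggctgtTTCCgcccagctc
HNRNPA2B1: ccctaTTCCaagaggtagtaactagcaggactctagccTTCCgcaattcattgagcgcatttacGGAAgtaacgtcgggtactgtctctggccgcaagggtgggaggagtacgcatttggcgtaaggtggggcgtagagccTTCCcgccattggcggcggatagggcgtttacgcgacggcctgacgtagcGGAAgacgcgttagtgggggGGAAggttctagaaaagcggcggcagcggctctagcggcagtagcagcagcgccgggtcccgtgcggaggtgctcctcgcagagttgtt
SF3B4: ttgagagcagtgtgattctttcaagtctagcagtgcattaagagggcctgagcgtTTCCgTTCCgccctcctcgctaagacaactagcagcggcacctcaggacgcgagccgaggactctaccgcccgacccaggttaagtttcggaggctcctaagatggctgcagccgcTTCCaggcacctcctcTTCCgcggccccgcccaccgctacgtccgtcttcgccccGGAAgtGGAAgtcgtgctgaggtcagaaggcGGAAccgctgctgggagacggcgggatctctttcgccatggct
SF3B6: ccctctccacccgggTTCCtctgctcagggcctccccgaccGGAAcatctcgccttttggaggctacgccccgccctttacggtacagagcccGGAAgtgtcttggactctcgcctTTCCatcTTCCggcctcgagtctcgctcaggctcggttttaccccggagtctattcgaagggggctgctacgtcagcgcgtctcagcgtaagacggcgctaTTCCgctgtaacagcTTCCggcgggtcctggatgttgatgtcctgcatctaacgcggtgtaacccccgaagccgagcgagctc
The SRSF6 window held 0 GGAA on either strand, against 7 in the SRSF7 window, 6 in HNRNPA2B1, 7 in SF3B4 and 7 in SF3B6. The second SRSF7 window held 6. The median was 3 in all windows and 4 in the members' windows. It was 4, 5 and 3 for members called higher, lower or not after siEWSR1, and 2, 5 and 3 after siFLI1. These 5 genes were picked for their changes or level, and any link of the counts to direction was not tested. The SRSF7 window also held 1 tandem GGAAGGAA, SF3B4 held 1 CCGGAAG and SF3B6 held 3. GGAA was present in 95.5% of the 35116 windows in the whole table and in 97.5% of the 79 windows of the 54 tested members that matched it. GGAAGGAA was in 5.06% of the members' windows and 3.67% of all windows, CCGGAAG (which contains GGAA) in 17.7% and 10.3%, and CCAAT in 39.2% and 34.6%, both strands counted. CCGGAAG was in 17.0% of the windows of all genes tested, close to the share in the members. These matches describe letters only.

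Splicing factor genes were called in both directions after either siRNA, and most of the changes were small. After siEWSR1, 34 of the 63 tested members passed the threshold (adjusted p under 0.05 over all 13043 genes, limma), 17 higher and 17 lower than in siNeg, a share of 54.0% against 64.2% of all genes tested (33.2% higher, 31.0% lower). After siFLI1, 35 of 63 passed, 14 higher and 21 lower, a share of 55.6% against 65.3% of all genes (35.7% higher, 29.6% lower). A change of at least 2-fold was called for 2 members in each comparison (SRSF8 and ESRP1, 3.17%), against 12.5% of all genes after siEWSR1 and 13.9% after siFLI1. ESRP1 passed the filter only through the siNeg libraries, where it is high, so its call, here and in the counts of members lower, is no support. The siFLI1 count of members lower also includes HNRNPCL4, which reached 1 FPKM in no siFLI1 library and is no support either. The median absolute log2 change of the tested members was 0.20 after siEWSR1 and 0.22 after siFLI1, against 0.35 and 0.35 over all genes tested. Among genes averaging at least 5 FPKM, 1 of 57 members (SRSF8, 1.75%) was called at 2-fold or more in each comparison, against 9.97% of all such genes after siEWSR1 and 11.4% after siFLI1. The split into higher and lower depends on scaling: with quantile normalization it was 28 higher and 12 lower after siEWSR1 and 22 higher and 18 lower after siFLI1, and with median centring it was 16 and 19, and 10 and 24. Without siNeg replicate 1 the siEWSR1 counts were 10 higher and 12 lower, and without siNeg replicate 2 they were 13 and 10.

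**Figure D1:**
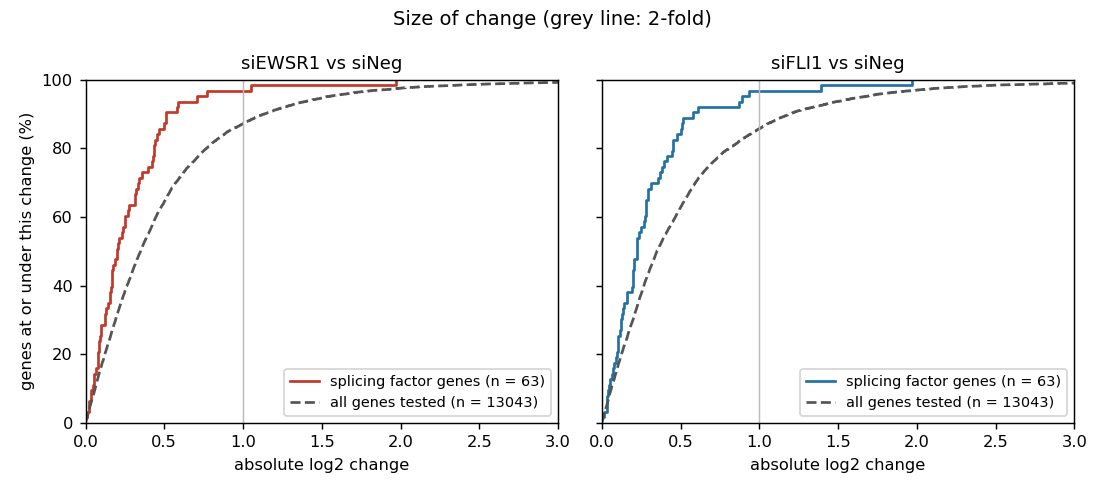
Cumulative share of genes (vertical axis, percent) at or under a given absolute log2 change (horizontal axis, log2(FPKM + 0.5) scale), for the 63 tested splicing factor genes (solid) and all 13043 genes tested (dashed), siEWSR1 against siNeg on the left and siFLI1 against siNeg on the right. The solid curves lie left of the dashed ones, with medians of 0.20 and 0.22 against 0.35 and 0.35.

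The comparisons of siEWSR1 and of siFLI1 share their siNeg libraries, so their calls are given side by side and no overlap is drawn from them. Higher in both were DHX9, HNRNPAB, HNRNPH2, HNRNPK, HNRNPM, SF1, SF3B1, SF3B4, SRSF1, SRSF2, SRSF5, SRSF6, SRSF8 and TRA2A (14 members). Lower in both were ESRP1, HNRNPA2B1, HNRNPA3, HNRNPD, HNRNPH3, HNRNPL, HNRNPLL, HNRNPR, HNRNPUL1, HNRNPUL2, HNRNPUL2-BSCL2, SF3B2, SF3B6, SRRM1, SRSF10, SRSF4 and SRSF7 (17 members). HNRNPU, PTBP2 and RBFOX2 passed the threshold, higher, in siEWSR1 alone, and HNRNPA1L2, HNRNPCL4, SF3A3 and U2AF1L4 passed it, lower, in siFLI1 alone. Of these, only RBFOX2 passed the direct comparison of siEWSR1 with siFLI1. HNRNPU after siFLI1 (0.14, adjusted p = 0.0537, limma) and SF3A3 after siEWSR1 (-0.16, adjusted p = 0.0562) missed the threshold narrowly, in the same direction. The remaining 25 passed in neither. No share of all genes is given for calls in both comparisons, nor for the calls below that held in every setting. Such counts are therefore not read as particular to the members. Calls that held under every alternative setting in which the gene was tested, each single library left out included, numbered 10 higher and 10 lower after siEWSR1 and 10 higher and 13 lower after siFLI1, ESRP1 being among the lower ones.

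**Figure D2:**
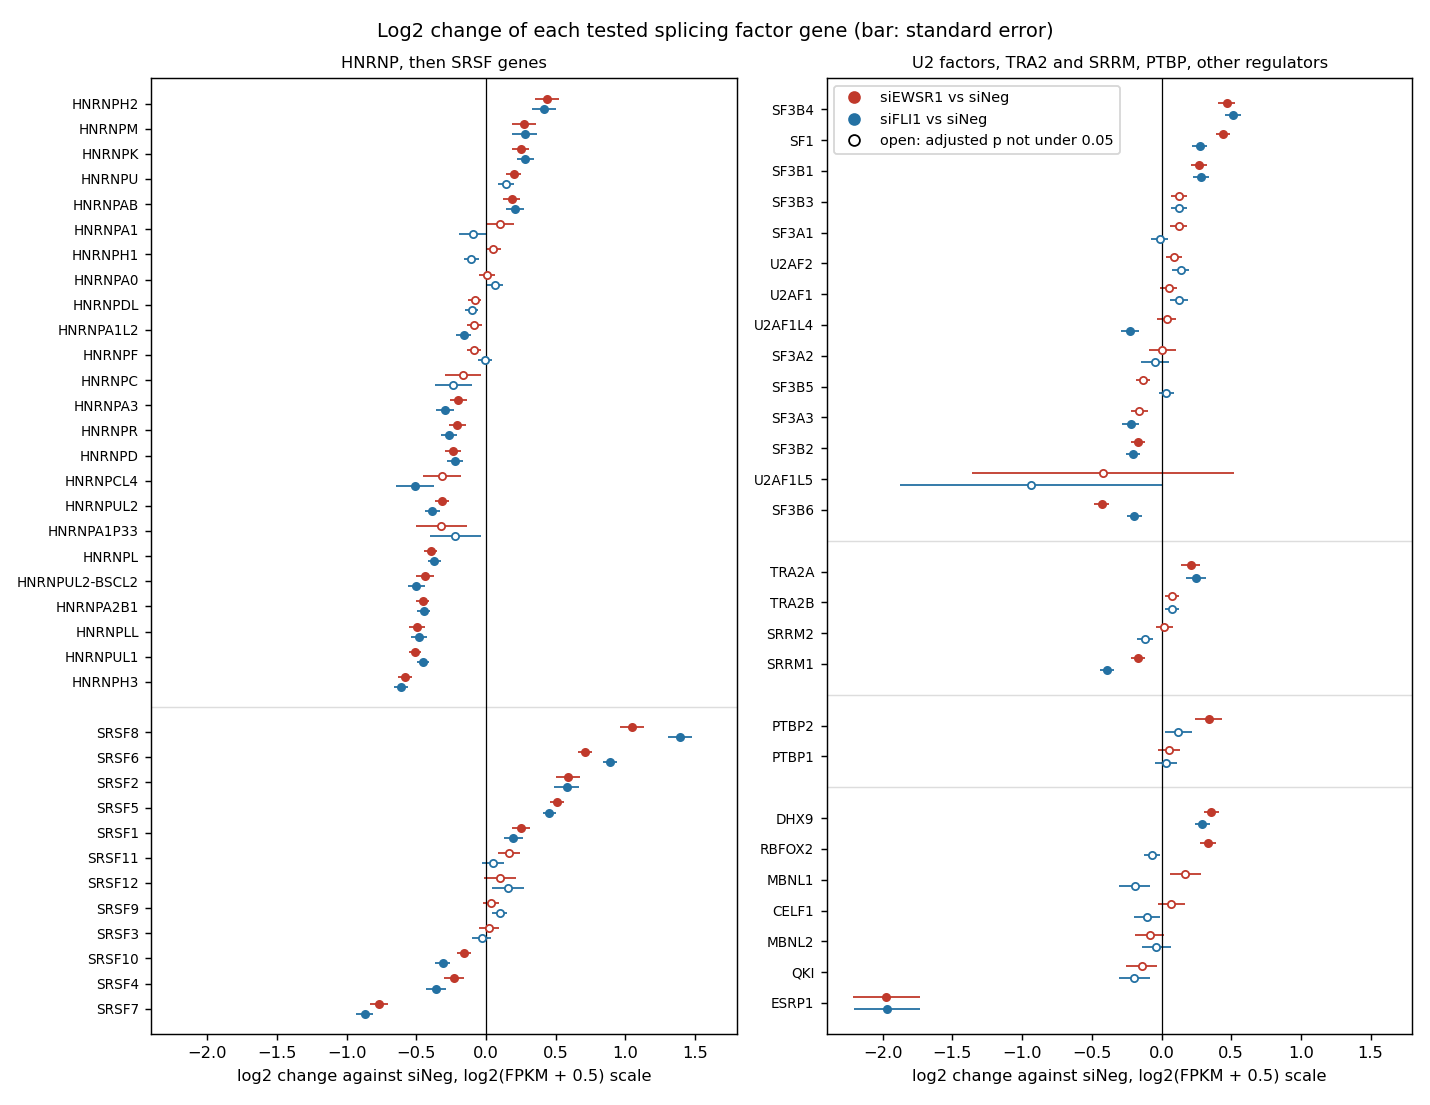
Log2 change against siNeg (horizontal axis, log2(FPKM + 0.5) scale) of each of the 63 tested members, siEWSR1 in red above siFLI1 in blue, with bars of 1 standard error and open points where the adjusted p was not under 0.05. SRSF8 lies farthest right, at 1.05 and 1.39, and ESRP1 farthest left, at -1.97 in both.

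Among the SR protein genes, SRSF6, SRSF8, SRSF2, SRSF5 and SRSF1 were called higher after either siRNA. SRSF7, SRSF4 and SRSF10 were called lower after either. The siEWSR1 calls of SRSF4 and SRSF10 and both calls of SRSF1 were lost in some alternative settings. Of the 12 tested SRSF genes, 5 were called higher and 3 lower in each comparison, with a median log2 change of 0.13 in each. The share called, 66.7% in each, was close to the 64.2% and 65.3% of all genes tested. With quantile normalization 8 were higher and 1 lower after siEWSR1, and 6 higher and 3 lower after siFLI1, and with median centring 5 and 3, and 4 and 3. SRSF3, SRSF9, SRSF11 and SRSF12 passed in neither comparison. SRSF9, after SRSF7 the most abundant SR protein gene in siNeg, had 108 and 102 FPKM in siEWSR1 libraries, 109.7 and 109 FPKM in siFLI1 libraries, and 99.3 and 105 FPKM in siNeg libraries. Its groups overlapped between siEWSR1 and siNeg.

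SRSF7, an SR protein with a zinc knuckle (hg19 chr2:38970741-38978636), had 84.1 and 78.9 FPKM in siEWSR1 libraries, 78.8 and 73.1 FPKM in siFLI1 libraries, and 143 and 135 FPKM in siNeg libraries. Both knockdown groups lay below both siNeg libraries with no overlap. Here, below and in the figures, a lack of overlap only describes the libraries. No share over all genes is given for it, and most genes named were picked for large changes, so it adds no support. HNRNPDL and TRA2B, called in neither comparison, did not overlap siNeg after either siRNA. The log2 change was -0.77 ± 0.06 (SE) after siEWSR1 (1.71-fold lower, adjusted p = 0.000118) and -0.87 ± 0.06 after siFLI1 (1.83-fold lower, adjusted p = 6.42e-05). It was the most abundant SRSF gene in siNeg. Its annotation holds 6 transcripts of the nonsense-mediated decay class among 12.

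SRSF6 (hg19 chr20:42086504-42092244), an SR protein that binds purine-rich exon sequences, moved the other way. It had 51.7 and 52.8 FPKM in siEWSR1 libraries, 58.0 and 60.7 FPKM in siFLI1 libraries, and 31.5 and 32.1 FPKM in siNeg libraries. The groups did not overlap, and the change was 0.71 ± 0.05 after siEWSR1 (1.63-fold higher, adjusted p = 6.74e-05) and 0.89 ± 0.05 after siFLI1 (1.85-fold higher, adjusted p = 2.38e-05). The ratio of SRSF6 to SRSF7 in FPKM was 0.615 and 0.669 in siEWSR1 libraries, 0.736 and 0.830 in siFLI1 libraries, and 0.220 and 0.237 in siNeg libraries. A ratio within a library is not altered by scaling the library as a whole, and it was higher in all 4 knockdown libraries than in either siNeg library.

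SRSF8 (hg19 chr11:94800041-94804387), a close relative of SRSF2, had the largest increase of any member but a low level. It had 7.13 and 8.24 FPKM in siEWSR1 libraries, 9.52 and 10.2 FPKM in siFLI1 libraries, and 3.37 and 3.53 FPKM in siNeg libraries, with no overlap between any of the groups. The change was 1.05 ± 0.08 after siEWSR1 (2.07-fold, adjusted p = 0.000108) and 1.39 ± 0.08 after siFLI1 (2.62-fold, adjusted p = 3.08e-05). No source used here says how reads common to SRSF8 and SRSF2 were assigned. The ratio of SRSF8 to SRSF2 was 0.0652 and 0.0848 in siEWSR1 libraries, 0.0919 and 0.1002 in siFLI1 libraries, and 0.0531 and 0.0478 in siNeg libraries, so the 2 genes did not move in proportion.

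SRSF2, an SR protein of the nucleus that recognises exon enhancers, had 109 and 97.2 FPKM in siEWSR1 libraries, 104 and 102 FPKM in siFLI1 libraries, and 63.4 and 73.7 FPKM in siNeg libraries (log2 changes 0.59 ± 0.09, adjusted p = 0.00147, and 0.58 ± 0.09, adjusted p = 0.0015). SRSF5 had 116 and 119 FPKM in siEWSR1 libraries, 114 and 112 FPKM in siFLI1 libraries, and 81.3 and 83.6 FPKM in siNeg libraries (0.51 ± 0.05, adjusted p = 0.000191, and 0.45 ± 0.05, adjusted p = 0.000272). Neither gene's knockdown libraries overlapped its siNeg libraries. SRSF2 lies over MFSD11 and MIR636 in the deposited coordinates and SRSF5 over LOC100289511. Since no source used here says whether counting used strand, reads of such neighbours cannot be told apart from theirs.

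**Figure D3:**
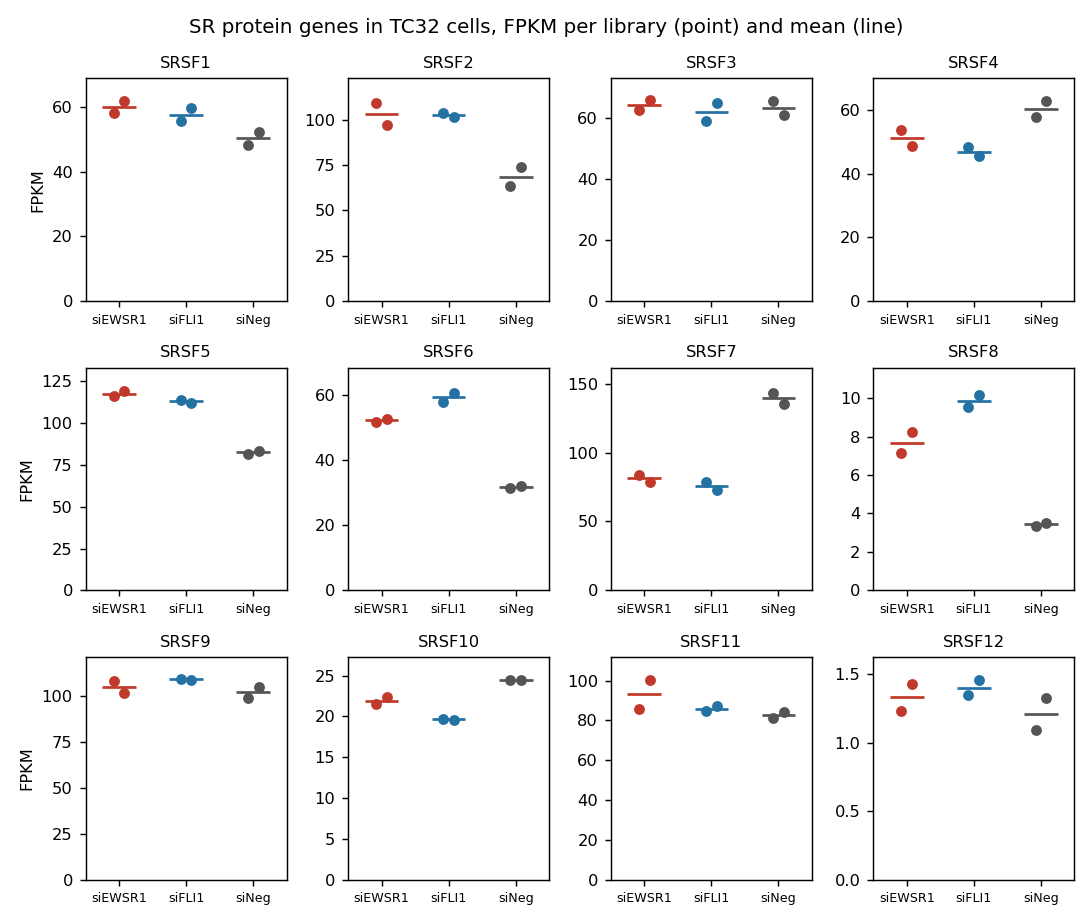
FPKM (vertical axis, from 0, own scale per gene) of the 12 SR protein genes in siEWSR1, siFLI1 and siNeg libraries, 1 point per library with a line at the mean. SRSF6 and SRSF8 are higher and SRSF7 lower in all 4 knockdown libraries than in either siNeg library.

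HNRNPA2B1, HNRNPH3, HNRNPL, HNRNPLL and HNRNPUL1 were lower and HNRNPH2 was higher after either siRNA. Of the 24 tested HNRNP genes, 5 were called higher and 10 lower after siEWSR1, and 4 higher and 12 lower after siFLI1, with median log2 changes of -0.18 and -0.22. The share called was 62.5% after siEWSR1 and 66.7% after siFLI1, close to the 64.2% and 65.3% of all genes. By direction, 20.8% were higher and 41.7% lower after siEWSR1, against 33.2% and 31.0% of all genes, and after siFLI1 16.7% were higher, against 35.7%, and 12 of the 24 lower, against 29.6%. With quantile normalization the counts were 6 higher and 9 lower, and 6 and 11, and the siEWSR1 median was 0.02, and with median centring they were 5 and 10, and 2 and 14. Genes averaging at least 50 FPKM over the libraries (1176 of them) had medians of -0.15 after siEWSR1 and -0.07 after siFLI1, and most HNRNP genes are of that level. The summed FPKM of the HNRNP genes was 2123 and 2115 in siEWSR1 libraries, 2030 and 2129 in siFLI1 libraries, and 2338 and 2336 in siNeg libraries.

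HNRNPA2B1, which binds pre-mRNA in the nucleus and has a role in RNA transport (hg19 chr7:26229556-26240413), was the most abundant member. It had 324 and 312 FPKM in siEWSR1 libraries, 319 and 320.0 FPKM in siFLI1 libraries, and 440.4 and 432 FPKM in siNeg libraries. All 4 knockdown libraries lay below both siNeg libraries, by -0.45 ± 0.05 on the log2 scale after siEWSR1 (adjusted p = 0.000335) and -0.45 ± 0.05 after siFLI1 (adjusted p = 0.000323).

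The H family, whose proteins bind runs of G, showed 3 different patterns. HNRNPH1 had 214 and 225 FPKM in siEWSR1 libraries, 195 and 199 FPKM in siFLI1 libraries, and 207 and 218 FPKM in siNeg libraries, and did not pass the test in either comparison (0.05, adjusted p = 0.431, and -0.10, adjusted p = 0.131). HNRNPH2, its close paralog, had 73.9 and 84.6 FPKM in siEWSR1 libraries, 73.4 and 82.6 FPKM in siFLI1 libraries, and 57.0 and 59.5 FPKM in siNeg libraries (0.44 ± 0.09, adjusted p = 0.00463, and 0.42 ± 0.09, adjusted p = 0.00567). HNRNPH3 had 96.6 and 93.6 FPKM in siEWSR1 libraries, 92.8 and 93.7 FPKM in siFLI1 libraries, and 144 and 141 FPKM in siNeg libraries (-0.58 ± 0.05, adjusted p = 0.000111, and -0.61 ± 0.05, adjusted p = 8.04e-05). HNRNPH2 was thus higher and HNRNPH3 lower in all 4 knockdown libraries than in siNeg, while the HNRNPH1 groups overlapped between siEWSR1 and siNeg. Relative to HNRNPH1 in the same library, HNRNPH3 stood at 0.451 and 0.415 in siEWSR1, 0.475 and 0.471 in siFLI1, and 0.697 and 0.649 in siNeg, and HNRNPH2 at 0.345 and 0.375 in siEWSR1, 0.376 and 0.415 in siFLI1, and 0.276 and 0.274 in siNeg. HNRNPH2 shares its interval with the readthrough gene RPL36A-HNRNPH2, and HNRNPH3 overlaps PBLD and RUFY2.

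HNRNPUL1, a relative of HNRNPU with a role in the DNA damage response, had 119 and 118 FPKM in siEWSR1 libraries, 123 and 124 FPKM in siFLI1 libraries, and 168 and 169 FPKM in siNeg libraries (-0.51 ± 0.05, adjusted p = 0.000157, and -0.45 ± 0.05, adjusted p = 0.000226). HNRNPLL, known for its role in CD45 splicing in T cells, had 18.8 and 17.7 FPKM in siEWSR1 libraries, 18.1 and 18.8 FPKM in siFLI1 libraries, and 26.2 and 25.6 FPKM in siNeg libraries (-0.49 ± 0.06, adjusted p = 0.000452, and -0.48 ± 0.06, adjusted p = 0.000479). Its paralog HNRNPL averaged 70.7 FPKM in siEWSR1, 71.9 FPKM in siFLI1 and 93.2 FPKM in siNeg libraries, and was also called lower in each comparison. For all 3 genes the knockdown libraries lay below siNeg with no overlap.

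The readthrough gene HNRNPUL2-BSCL2 had 17.5 and 16.6 FPKM in siEWSR1 libraries, 16.97 and 15.6 FPKM in siFLI1 libraries, and 23.3 and 23.2 FPKM in siNeg libraries (-0.44 ± 0.06, adjusted p = 0.00107, and -0.50 ± 0.06, adjusted p = 0.000555). It shares its interval with HNRNPUL2 and BSCL2, so its reads are not independent of theirs. HNRNPD, also known as AUF1 and a binder of AU-rich elements, had 125 and 119.8 FPKM in siEWSR1 libraries, 122 and 125 FPKM in siFLI1 libraries, and 139 and 149.7 FPKM in siNeg libraries (-0.24 ± 0.06, adjusted p = 0.0105, and -0.22 ± 0.06, adjusted p = 0.0128). Its knockdown libraries lay below siNeg. The siEWSR1 call of HNRNPD was lost without siNeg replicate 2 (adjusted p = 0.0699) and the siFLI1 call without siNeg replicate 2 (0.0835) or siFLI1 replicate 1 (0.0746), and quantile normalization ended both. HNRNPCL4 had 1.08 and 0.811 FPKM in siEWSR1 libraries, 0.703 and 0.815 FPKM in siFLI1 libraries, and 1.19 and 1.40 FPKM in siNeg libraries, and passed only after siFLI1 (-0.51 ± 0.14, adjusted p = 0.0156). That call was lost without siNeg replicate 2 (adjusted p = 0.0937) or siFLI1 replicate 1 (adjusted p = 0.0795). No siFLI1 library of HNRNPCL4 reached 1 FPKM, so it passed the filter through the groups where it is higher, and its call is no support. HNRNPCL4 overlaps HNRNPCL1 and HNRNPCL3 in the deposited coordinates, and these near copies can share reads.

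**Figure D4:**
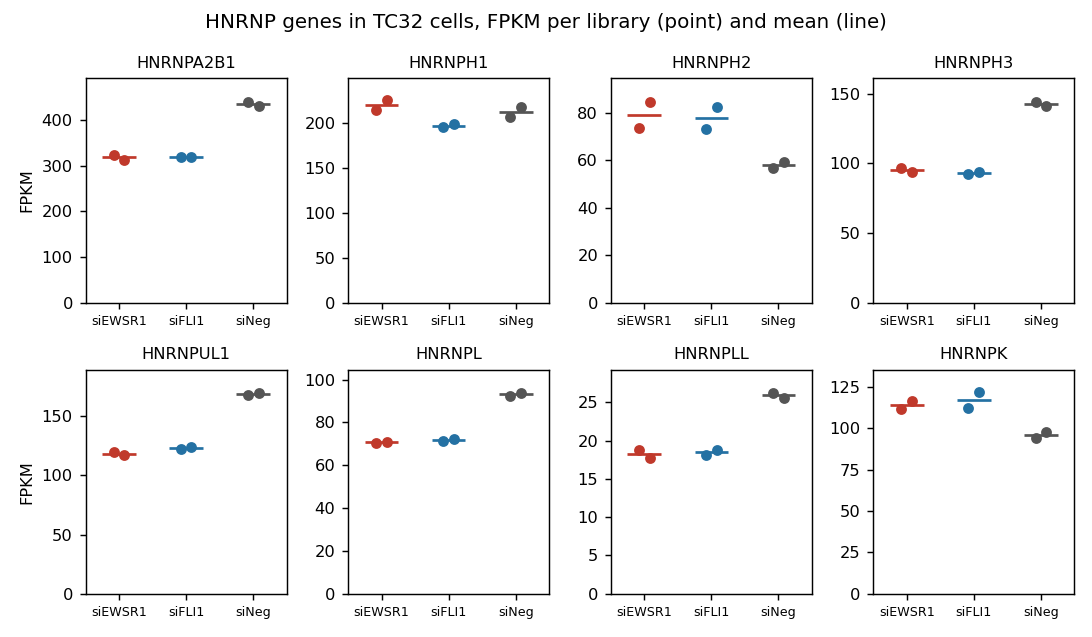
FPKM (vertical axis, from 0, own scale per gene) of 8 HNRNP genes in siEWSR1, siFLI1 and siNeg libraries, 1 point per library with a line at the mean. HNRNPA2B1, HNRNPH3, HNRNPUL1, HNRNPL and HNRNPLL are lower and HNRNPH2 and HNRNPK higher in all 4 knockdown libraries than in siNeg.

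In the set of 14 U2 factor genes, SF3B4, SF3B1 and SF1 were higher and SF3B6 lower. After siEWSR1, 3 were called higher and 2 lower (21.4% and 14.3%, against 33.2% and 31.0% of all genes), and after siFLI1, 3 higher and 4 lower (21.4% and 28.6%, against 35.7% and 29.6%). With quantile normalization the counts were 7 higher and 1 lower after siEWSR1, and 7 higher and 2 lower after siFLI1, and with median centring 3 and 4 in each. U2AF1 and U2AF2, the subunits that read the end of the intron, passed in neither comparison, and neither did SF3A1, SF3A2, SF3B3 and SF3B5.

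SF3B4 (hg19 chr1:149895209-149900144), which contacts the intron near the branch site, had 31.7 and 34.4 FPKM in siEWSR1 libraries, 34.3 and 33.9 FPKM in siFLI1 libraries, and 23.2 and 24.3 FPKM in siNeg libraries. The knockdown libraries lay above siNeg with no overlap (0.47 ± 0.06, adjusted p = 0.000731, and 0.51 ± 0.06, adjusted p = 0.00045). SF3B6 (hg19 chr2:24290454-24299314), which binds SF3B1 next to the branch site and was the most abundant of the set in siNeg, had 105 and 104 FPKM in siEWSR1 libraries, 121 and 125 FPKM in siFLI1 libraries, and 146 and 136 FPKM in siNeg libraries. No 2 of the groups overlapped, and the siFLI1 libraries lay between the other two groups. It was lower after siEWSR1 (-0.43 ± 0.06, adjusted p = 0.000713) and after siFLI1 (-0.20 ± 0.06, adjusted p = 0.0192), and the direct difference of siEWSR1 from siFLI1 was -0.23 ± 0.06 (adjusted p = 0.0705). The siFLI1 call was lost without siNeg replicate 1 (adjusted p = 0.117), siFLI1 replicate 1 (adjusted p = 0.104) or siFLI1 replicate 2 (adjusted p = 0.0563), and with quantile normalization (-0.04, adjusted p = 0.512). The ratio of SF3B4 to SF3B6 was 0.300 and 0.331 in siEWSR1 libraries, 0.283 and 0.271 in siFLI1 libraries, and 0.158 and 0.179 in siNeg libraries.

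SF3B1, the large scaffold of the complex that is mutated in several cancers, had 139 and 151 FPKM in siEWSR1 libraries, 145 and 148 FPKM in siFLI1 libraries, and 121 and 120.0 FPKM in siNeg libraries (0.27 ± 0.06, adjusted p = 0.00599, and 0.28 ± 0.06, adjusted p = 0.00476). SF1, the protein that first binds the branch site, averaged 85.9 FPKM in siEWSR1, 76.5 FPKM in siFLI1 and 63.1 FPKM in siNeg libraries and was called higher in each comparison. For both genes the knockdown libraries lay above siNeg. U2AF1L5 overlaps U2AF1 in the deposited coordinates, and its values scattered between 0.000273 and 4.00 FPKM over the libraries, so no level is drawn from it.

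**Figure D5:**
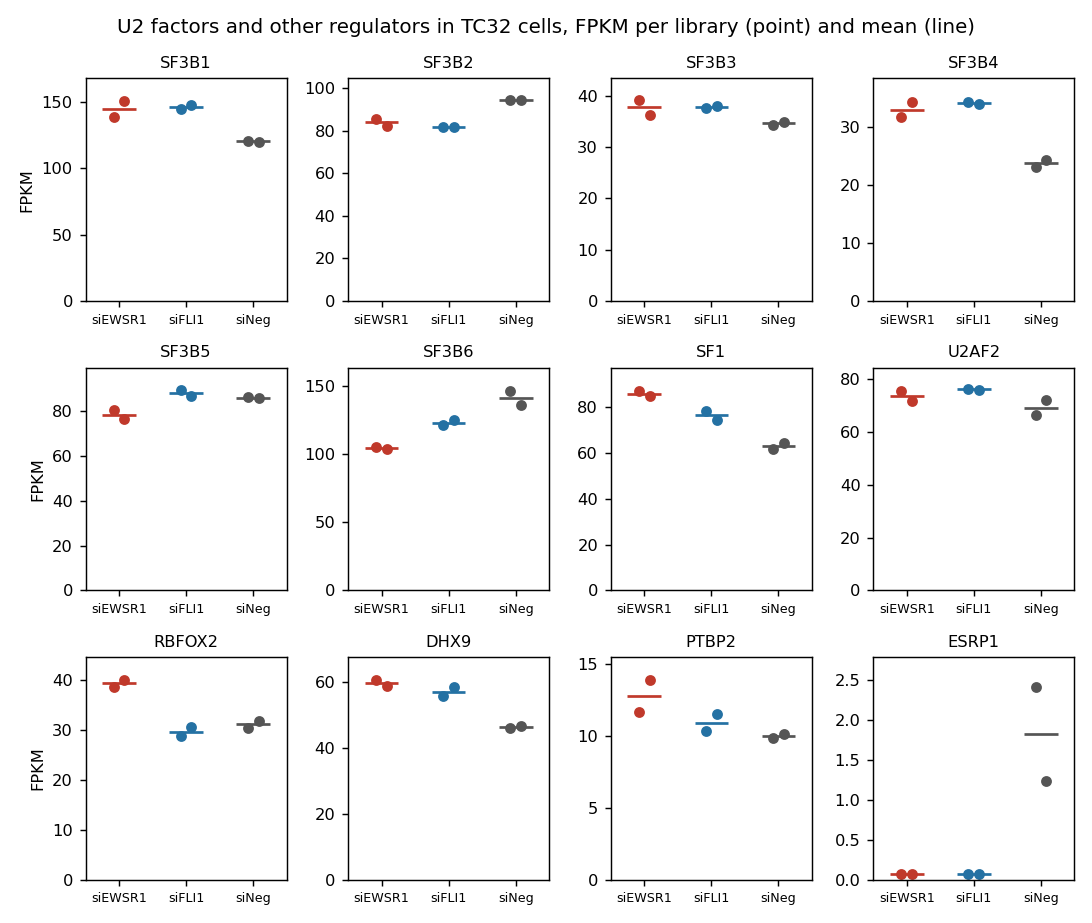
FPKM (vertical axis, from 0, own scale per gene) of 8 U2 factor genes and of RBFOX2, DHX9, PTBP2 and ESRP1 in siEWSR1, siFLI1 and siNeg libraries, 1 point per library with a line at the mean. SF3B4, SF3B1 and SF1 are higher and SF3B6 lower in all 4 knockdown libraries than in siNeg.

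Of the TRA2 and SRRM genes, SRRM2, a scaffold of nuclear speckles, had 122 and 118 FPKM in siEWSR1 libraries, 114 and 105 FPKM in siFLI1 libraries, and 117 and 119.7 FPKM in siNeg libraries and did not pass in either comparison. TRA2A, an SR-like activator, had 63.9 and 71.9 FPKM in siEWSR1 libraries, 68.3 and 70.8 FPKM in siFLI1 libraries, and 59.5 and 57.5 FPKM in siNeg libraries. Its knockdown libraries lay above siNeg (0.21 ± 0.07, adjusted p = 0.0334, and 0.25 ± 0.07, adjusted p = 0.0181), but the siEWSR1 call was lost when any library but siEWSR1 replicate 1 was left out (adjusted p = 0.122 without siEWSR1 replicate 2, 0.0585 and 0.0586 without siFLI1 replicate 1 or 2, 0.0838 and 0.146 without siNeg replicate 1 or 2). The siFLI1 call of TRA2A was lost without siNeg replicate 1 (0.0555), siNeg replicate 2 (0.0948), siFLI1 replicate 1 (0.0542) or siFLI1 replicate 2 (0.0963), and median centring ended both calls.

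PTBP1, the repressor of neuronal exons, had 102 and 92.8 FPKM in siEWSR1 libraries, 92.6 and 99.3 FPKM in siFLI1 libraries, and 89.1 and 98.6 FPKM in siNeg libraries, with overlapping groups and no call. PTBP2, its neuronal paralog, had 11.7 and 13.8 FPKM in siEWSR1 libraries, 10.3 and 11.5 FPKM in siFLI1 libraries, and 9.84 and 10.1 FPKM in siNeg libraries. The siEWSR1 change was 0.34 ± 0.09 (adjusted p = 0.0194), and the siFLI1 change 0.12 ± 0.09 (adjusted p = 0.297). The siEWSR1 call of PTBP2 was lost when siEWSR1 replicate 2 was left out (change 0.22, adjusted p = 0.0764), and also without siNeg replicate 1 (0.0899) or siNeg replicate 2 (0.0658).

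DHX9 had 60.5 and 58.6 FPKM in siEWSR1 libraries, 55.5 and 58.3 FPKM in siFLI1 libraries, and 46.1 and 46.6 FPKM in siNeg libraries. All 4 knockdown libraries were above siNeg (0.36 ± 0.05, adjusted p = 0.00114, and 0.29 ± 0.05, adjusted p = 0.00263). ESRP1, a splicing regulator of epithelial cells, had the largest difference in level between the groups on the log2 scale. It was listed at 0.0724 and 0.0735 FPKM in siEWSR1 libraries, 0.0758 and 0.0737 FPKM in siFLI1 libraries, and 2.41 and 1.24 FPKM in siNeg libraries. The siNeg libraries stood apart from each other, and both lay above all 4 knockdown libraries. The log2 change was -1.97 after siEWSR1 and -1.97 after siFLI1, on a scale where the added 0.5 understates the change at such levels. ESRP1 passed the filter only through the siNeg libraries, where it is high, so these values are a description and no test is read from them. Its paralog ESRP2 was between 0.0473 and 0.112 FPKM in all libraries and was not tested. Of 9 epithelial markers, 5 were under 1 FPKM in all libraries, including EPCAM at no more than 0.129 FPKM, and their summed level averaged 28.3 FPKM in siEWSR1, 31.6 FPKM in siFLI1 and 22.7 FPKM in siNeg libraries, most of it KRT18. Any link of this sum to ESRP1 was not tested. MBNL1, MBNL2, QKI and CELF1 passed in neither comparison.

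RBFOX2 was the only member that passed the test between siEWSR1 and siFLI1 (1 of 63, 1.59%, against 3.86% of all genes tested). RBFOX2, which binds UGCAUG in introns (hg19 chr22:36134783-36424585), had 38.8 and 40.0 FPKM in siEWSR1 libraries, 28.8 and 30.7 FPKM in siFLI1 libraries, and 30.5 and 32.0 FPKM in siNeg libraries. Both siEWSR1 libraries lay above all 4 others, and the siFLI1 and siNeg libraries overlapped. RBFOX2 was higher after siEWSR1 than in siNeg (0.33 ± 0.06, adjusted p = 0.00272), did not pass after siFLI1 (-0.07 ± 0.06, adjusted p = 0.328), and differed by 0.40 ± 0.06 between siEWSR1 and siFLI1 (1.32-fold, adjusted p = 0.0258). The direct call was lost when any library but siEWSR1 replicate 1 was left out (adjusted p = 0.0843 without siEWSR1 replicate 2, 0.132 and 0.153 without siFLI1 replicate 1 or 2, 0.0658 and 0.0660 without siNeg replicate 1 or 2), with a difference between 0.35 and 0.45. The other 62 members missed the threshold in the direct comparison. At an unadjusted p under 0.05 (limma), 7 of the 63 were higher and 4 lower, against 959 and 2095 of the 13043 genes tested. The median absolute log2 difference of the members between siEWSR1 and siFLI1 was 0.06, against 0.11 over all genes. A missed threshold does not show equal levels.

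Other splicing genes came from lists by function and were set beside the 64.2% of all genes called after siEWSR1 (33.2% higher, 31.0% lower) and the 65.3% called after siFLI1 (35.7% higher, 29.6% lower). Of 72 tested proteins of the core spliceosome, 7 were higher and 33 lower after siEWSR1, and 6 higher and 39 lower after siFLI1, with median log2 changes of -0.14 and -0.21. The shares were 9.72% higher and 45.8% lower after siEWSR1, and 8.33% higher and 54.2% lower after siFLI1. No counts under other scalings are given for this or the other lists. Since scaling shifted the members' split into higher and lower, the split of a list may depend on it too. This core list includes LSM8, a ring protein of U6, which averaged 3.76 ± 0.03 FPKM in siEWSR1 and 6.99 ± 0.49 FPKM in siNeg (SD, n = 2 each; -0.81, adjusted p = 0.000167). It also includes SNRPA1, a U2 protein, which averaged 4.99 ± 0.39 FPKM in siFLI1 and 9.98 ± 1.24 FPKM in siNeg (-0.93, adjusted p = 0.00154). ZRSR2, which acts on minor introns, was the highest core gene called, at 0.44 after siEWSR1 and 0.46 after siFLI1. Of 9 SR protein kinase genes, 3 were higher and 3 lower after siEWSR1, and 4 higher and 3 lower after siFLI1 (66.7% and 77.8% called). DYRK1B averaged 11.1 ± 0.06 FPKM in siEWSR1, 11.6 ± 0.79 FPKM in siFLI1 and 4.65 ± 0.42 FPKM in siNeg (1.17 and 1.23), and CLK3, which phosphorylates SR proteins, averaged 19.6 ± 0.92 FPKM in siEWSR1, 20.8 ± 1.03 FPKM in siFLI1 and 29.5 ± 2.04 FPKM in siNeg (-0.58 and -0.49).

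Of 50 tested other RNA-binding regulators, 18 were higher and 18 lower after siEWSR1, and 14 higher and 18 lower after siFLI1. The shares called, 72.0% and 64.0%, stand beside 64.2% and 65.3% of all genes. MBNL3, a paralog of MBNL1, averaged 14.1 ± 2.79 FPKM in siEWSR1, 13.4 ± 2.23 FPKM in siFLI1 and 2.97 ± 0.07 FPKM in siNeg (SD, n = 2 each; 2.05, adjusted p = 8.04e-05, and 2.00, adjusted p = 7.75e-05). RBM15 averaged 4.87 ± 0.31 FPKM in siEWSR1, 4.07 ± 0.12 FPKM in siFLI1 and 10.1 ± 0.47 FPKM in siNeg (-0.98 and -1.22). Of the 10 SMN complex genes, which assemble spliceosomal particles, 3 were lower after siEWSR1 and 4 after siFLI1, with 0 higher in either (1 and 0 at an unadjusted p under 0.05, limma), so that 30.0% and 40.0% were called. GEMIN2 had the lowest values, at -0.78 and -0.61. Of 15 genes of the exon junction complex and nonsense-mediated decay, 5 were higher and 4 lower after siEWSR1, and 6 higher and 4 lower after siFLI1 (60.0% and 66.7% called). SMG6, the endonuclease of the decay pathway, stood at 0.69 and 0.86, and SMG9 at -0.59 and -0.54. Between siEWSR1 and siFLI1, 4 core genes were higher and 2 lower (5.56% and 2.78%, against 0.790% and 3.07% of all genes tested). Among them were PRPF3 at 0.42 (adjusted p = 0.0246, limma) and PRPF4 at -0.31 (adjusted p = 0.0459). The PRPF3 call was lost in 5 and the PRPF4 call in all 6 of the fits that left out 1 library, with adjusted p up to 0.185 and 0.215.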

How the data were processed

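Gene expression was measured by RNA-seq in 6 libraries of TC32 cells, 2 each of siEWSR1, siFLI1 and siNeg. The authors aligned reads to hg19 with TopHat2 (version 2.0.13) and used Cufflinks and Cuffdiff, per the submitters' processing notes. The deposited gene tables give FPKM with a 95% interval for each gene and library, and no read counts, so depth is unknown. For 57 of the 63 tested members the deposited interval was within 10% of the value in all libraries (range 1.70 to 9.48%, median 4.10%). The exceptions were ESRP1, HNRNPA1P33, HNRNPCL4, SRSF12, U2AF1L4 and U2AF1L5.

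Values were taken as log2(FPKM + 0.5), kept where at least 2 of 6 libraries reached 1 FPKM, and fitted in limma 3.58.1 (R 4.3.3) with a variance trend, 1 fit over all 3 groups with 3 residual degrees of freedom. P-values were adjusted by Benjamini-Hochberg over 13043 genes, with a threshold of 0.05. Fold changes are on that log2 scale, which understates low genes. The fit was tested on simulated data for siEWSR1 against siNeg (13043 genes): 100 of 100 genes changed 1.5-fold and 99 of 100 changed 2-fold were called, with 7 false calls. In the simulation the spread followed the level of a gene alone, and few genes were changed. It therefore does not measure recovery in these data, where most genes were called.

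The members and the gene lists were chosen with earlier results of these data known. Full values are given for the 10 called members with the largest change in each comparison with siNeg, those called between siEWSR1 and siFLI1, the 5 most abundant in siNeg and the 2 most abundant in each family, and in each list for the highest and lowest called gene. Promoter windows came from RefSeq and transcript classes from GENCODE, both matched by symbol.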

Additional observations from a re-analysis of the deposited data

Results flagged for a closer look

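RBFOX2 differed between the siRNAs when they were compared directly: its log2 difference was 0.40 ± 0.06 (SE) for siEWSR1 against siFLI1 (adjusted p = 0.0258, limma), and it was higher in both siEWSR1 libraries than in either siFLI1 library. PRPF3, a protein of the U4/U6 particle, differed the same way, by 0.42 (adjusted p = 0.0246), with 56.5 ± 0.63 FPKM in siEWSR1 and 42.0 ± 1.58 FPKM in siFLI1 (SD, n = 2 each). PRPF4, its partner in that particle, differed the other way, by -0.31 (adjusted p = 0.0459), with 16.3 ± 0.29 FPKM in siEWSR1 and 20.4 ± 0.54 FPKM in siFLI1. The RBFOX2 and PRPF3 calls were each lost in 5 of the 6 fits that left out 1 library, and the PRPF4 call in all 6.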

How the results depend on the processing

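Of the members' calls, 10 higher and 10 lower after siEWSR1 and 10 higher and 13 lower after siFLI1 held under every alternative run in which the gene was tested (ESRP1 is among the lower ones but passed the filter only through siNeg). Leaving out 1 library gave 10 to 16 members higher and 10 to 17 lower after siEWSR1, 10 to 15 and 15 to 21 after siFLI1, and 0 to 1 higher and 0 lower between siEWSR1 and siFLI1. Over all genes it gave 3526 to 4163 higher and 3205 to 4042 lower after siEWSR1, 3789 to 4800 and 2991 to 4005 after siFLI1, and 3 to 85 and 2 to 508 between the siRNAs. Where this leaves 1 library in a group, that library is assumed to vary like the other groups.

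Quantile normalization gave 28 members higher after siEWSR1 and 22 after siFLI1, 209 genes higher between the siRNAs, and turned SF3B2 after siEWSR1 to 0.048 (adjusted p = 0.351). A mean of at least 5 FPKM left 2518 genes higher after siEWSR1 and 2787 after siFLI1, of fewer tested. Between siEWSR1 and siFLI1, the call of RBFOX2 was lost with no filter (0 members, 15 genes higher, 73 lower) and in a fit on those 2 groups (0 members, 12 and 99), and the robust trend gave 185 and 640 genes. The cause was not tested.

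The labels do not say whether the replicate numbers pair the libraries. Deviations of same-numbered libraries correlated at -0.137, -0.053 and 0.0689, which with 2 libraries a group cannot settle it. With the replicate number as a block, the members' counts were 17 higher and 16 lower after siEWSR1 and 14 and 20 after siFLI1. The block kept 1 member higher between the siRNAs, with 57 genes higher and 262 lower, and dropped SRSF10 after siEWSR1 (adjusted p = 0.0568) and HNRNPA1L2 after siFLI1 (0.0549). A block with crossed siNeg numbers, chosen after seeing the data, gave 2 members higher between the siRNAs. The groups have 2 libraries each and no counts, so changes near the smallest called were not firmly resolved.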

Other observations

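The annotation of the members' transcripts was read from GENCODE as a description. A transcript of the nonsense-mediated decay class was annotated for 41 of the 61 tested members that matched a protein-coding gene there (67.2%), against 43.3% of 11916 genes tested, and for 12 of 12 SRSF genes. A retained-intron transcript was annotated for 72.1% of the members and 58.1% of the genes. The members also had more annotated transcripts, a median of 12 against 8, and the shares were not adjusted for this. U2AF1L5 carried the same transcript counts as U2AF1. The members called higher and those called lower after siEWSR1 had a decay-class transcript in 64.7% and 68.8% of cases, and those not called in 67.9%. Gene-level FPKM do not separate these transcripts, so their use was not measured.

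The summed FPKM of the 12 SRSF genes was 759.5 and 758.7 in siEWSR1 libraries, 742 and 745 in siFLI1 libraries, and 701 and 719 in siNeg libraries. The sum over all 70 members was 4272 and 4253 in siEWSR1 libraries, 4130.3 and 4248 in siFLI1 libraries, and 4368 and 4399 in siNeg libraries.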
